A study of Mus musculus with 13 samples.

Results

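Among the genes of acute inflammation, 9 that encode secreted cytokines and chemokines (Tnf, Il1b, Il6, Il1a, Ccl3, Ccl4, Ccl9, Cxcl2 and Cxcl10) were taken by name out of 24062 rows and read in each of the 13 bone marrow libraries of the series. The cells were LK cells, the marrow fraction without lineage markers and Sca-1 but with c-kit, which holds mostly committed myeloid, erythroid and megakaryocyte progenitors. They were isolated from lethally irradiated Boy/J mice (7.0 Gy, then 4.75 Gy after 3 h) that carried transplanted marrow. The 3 WT libraries came from TIFAB+/+;miR-146a+/+ marrow, the 3 TIFAB_KO libraries from TIFAB-/-;miR-146a+/+, the 3 miR-146a_KO libraries from TIFAB+/+;miR-146a-/- and the 4 dKO libraries from TIFAB-/-;miR146a-/- marrow. All groups, WT included, share irradiation and transplantation, and an age of 2 to 5 months is stated. The protocol gives 3 mice per group, while dKO has 4 libraries, and the labels do not tie each library to its own animal. The p-values below therefore measure the spread between libraries, which may be partly technical. The knockouts are given as -/- marrow, with no Cre line and no cell type named. No source used here gives the stretch removed from each gene, or says whether donor cells were separated from residual recipient cells.

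Toll-like receptors and the interleukin-1 receptor signal through the adaptor MyD88 and IRAK kinases to the ubiquitin ligase TRAF6, and from there to NF-kB and AP-1, which induce the transcription of these cytokines. The mRNAs made are short-lived, because proteins such as tristetraprolin (Zfp36) bind AU-rich stretches in their 3′ untranslated regions and recruit decay enzymes. TIFAB is known as an inhibitor of TRAF6, and miR-146a as a microRNA that represses Traf6 and Irak1, so each normally restrains this pathway. The design asks what happens in progenitors when one or both of these restraints are removed.

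None of the 8 genes tested passed in any comparison (Il1a was below the filter), and the 4 largest differences from WT were lower values, of Cxcl10, Cxcl2 and Tnf in TIFAB_KO and of Cxcl10 in dKO. The test was limma on log2 CPM (log2 counts per M reads, with 0.5 read added) over the 11867 rows whose mean reached 0 log2 CPM, and a Benjamini-Hochberg adjusted p under 0.05 was called. Tnf had 0.48 times the WT level in TIFAB_KO and 0.52 times in dKO by the group means of log values, and Cxcl2 was lower in all 3 TIFAB_KO libraries than in any WT library. Ccl9 was lower in every dKO library than in any WT or TIFAB_KO library. Ccl3 stayed near WT in all 3 knockout groups (log2 fold changes of -0.05, -0.09 and -0.14), and Il6 had its highest group means in miR-146a_KO and dKO.

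The libraries held 7.83 to 12.8 M reads. Tifab, the targeted gene, had 39.6 to 49.4 CPM in WT, 64.4 to 70.8 in miR-146a_KO, 8.95 to 12.8 in TIFAB_KO and 3.23 to 11.0 in dKO, so its level followed the labels. The Mir146 row had 0 reads in all 13 libraries, so the loss of miR-146a could not be checked there. All 15 progenitor markers had a median of over 3 reads. The libraries least like the rest were TIFAB_KO replicate 3 and dKO replicate 3, with a median correlation of 0.947 and 0.951 with the others. In dKO replicate 3 the late granulocyte markers summed to 612 CPM, against 46.9 to 291 CPM in the other 12 libraries, and the dendritic cell markers to 616 CPM, against 197 to 325 CPM. Values that moved most with these libraries are also given without them.

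All 9 genes had reads, and 1 of them, Il1a, was near the detection floor, which was set at a median of under 10 reads per library. Il1a had 1, 1 and 11 reads in the WT libraries, and 2, 11 and 1 reads in TIFAB_KO. It had 6, 7 and 4 reads in miR-146a_KO, and 7, 3, 0 and 4 reads in dKO. Only 7 of 13 libraries had over 3 reads. The 0 of dKO replicate 3 allows up to 3 reads, or 0.346 CPM in that library, by counting error alone. Il6 stood just above the floor with a median of 12 reads (5 to 38) and Il1b came next with 26 (8 to 40). The medians were 67 reads for Cxcl2, 103 for Ccl4, 122 for Cxcl10, 187 for Tnf, 693 for Ccl3 and 1344 for Ccl9. Since reads were amplified without a stated molecular identifier, counting error is the least error that these values can have.

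To compare levels between genes, CPM was divided by the length of the longest protein-coding transcript of each gene. On this log2 CPM per kb scale, the CC chemokines Ccl3 (6.67 ± 0.33, SD, n = 3) and Ccl9 (5.76 ± 0.21) were highest in WT. Tnf (4.17 ± 0.16), Ccl4 (4.01 ± 0.34) and Cxcl10 (3.85 ± 0.24) followed, then Cxcl2 (2.02 ± 0.08) and Il1b (1.05 ± 0.10), and Il6 (-1.46 ± 0.65) and Il1a (-2.80 ± 1.79) were lowest. In WT the libraries of Tnf and Ccl4, of Ccl4 and Cxcl10, and of Il6 and Il1a overlapped, so the order within these pairs is not settled, while every other neighbouring pair was apart. On this scale Ccl3 and Ccl9 were ranked 1 and 2 in all 4 groups, with no overlap between them or with the gene ranked 3. The order of Ccl3 above Ccl9 rests on the lengths used, 766 and 3006 bases. In CPM without this division Ccl9 was the higher, with WT means of 165 CPM against 79.5 CPM for Ccl3. In dKO every neighbouring pair from Ccl4 downwards overlapped. By group means, each of the 5 chemokines stood above each of the 3 interleukins in all 4 groups.

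**Figure D1:**
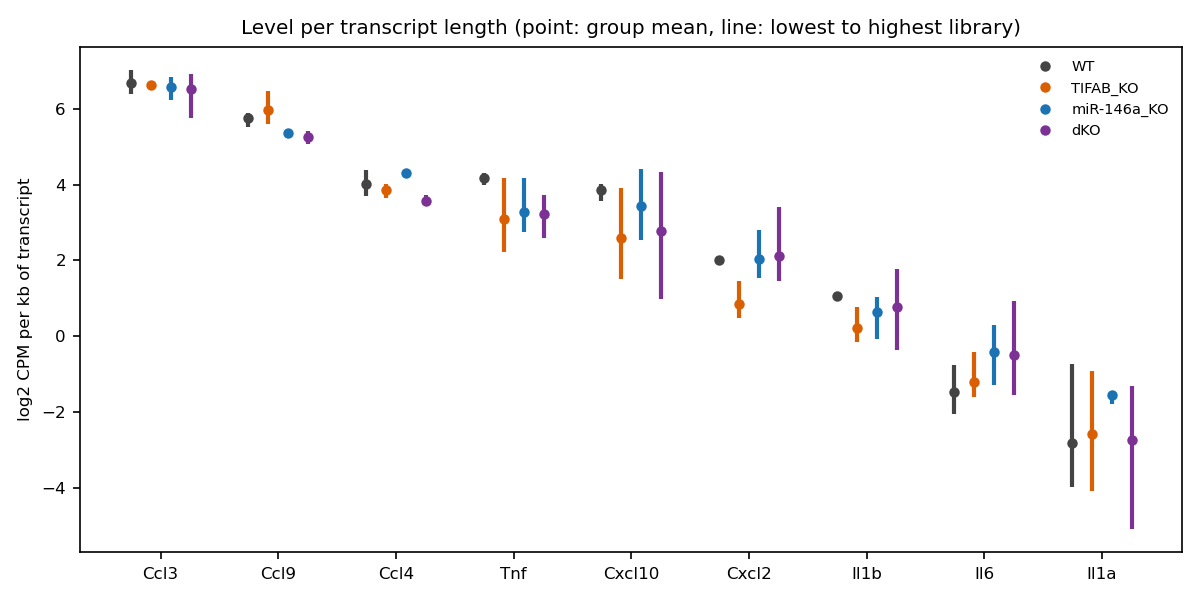
Level of each gene on the log2 CPM per kb of transcript scale, by group; points are group means (n = 3, dKO n = 4) and lines run from the lowest to the highest library. Ccl3 and Ccl9 stand above the other genes in each group, and Il6 and Il1a are lowest, with the long Il1a lines resting on 0 to 11 reads.

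Tnf (chr17:35199381-35202007, minus strand, mm10) encodes tumour necrosis factor, the cytokine that activates NF-kB through Tnfrsf1a and Tnfrsf1b. Its values were 30.4, 32.3 and 26.0 CPM in the WT libraries (replicates 1 to 3, the order kept below), and 29.4, 12.4 and 7.66 CPM in TIFAB_KO. It had 29.5, 10.9 and 12.1 CPM in miR-146a_KO and 14.4, 9.78, 21.5 and 18.1 CPM in dKO. The WT libraries lay close together, 1 library of each single knockout was at the WT level, and all 4 dKO libraries lay below all WT libraries. The differences from WT were -1.06 ± 0.41 in TIFAB_KO (log2 fold change ± SE, limma unadjusted p = 0.0192, adjusted p = 0.843), -0.90 ± 0.41 in miR-146a_KO (0.0434 and 0.521) and -0.94 ± 0.39 in dKO (0.0258 and 0.303). None passed. Tnf in dKO was close to either single knockout, at 0.12 against TIFAB_KO (95% interval -0.69 to 0.93) and -0.04 against miR-146a_KO (-0.85 to 0.77), intervals that reach almost 1 log2 unit. Without TIFAB_KO replicate 1 the TIFAB_KO difference was -1.59 and without TIFAB_KO replicate 3 it was -0.62. Without miR-146a_KO replicate 1 the miR-146a_KO difference was -1.35.

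Il1b (chr2:129364570-129371139, minus strand) encodes interleukin-1 beta, which is cleaved by caspase-1 before release. It had 3.00, 2.65 and 2.67 CPM in WT, 1.31, 1.17 and 2.27 CPM in TIFAB_KO, 1.24, 2.75 and 2.56 CPM in miR-146a_KO and 2.10, 0.99, 4.61 and 2.73 CPM in dKO. The 3 TIFAB_KO libraries lay below the WT libraries in CPM, while dKO spanned both. The nearest, TIFAB_KO replicate 3 (29 reads) and WT replicate 2 (26 reads), were not apart beyond counting error. Their 95% intervals of counting error were 1.52 to 3.26 and 1.73 to 3.88 CPM. The TIFAB_KO difference of -0.84 ± 0.52 did not pass (limma adjusted p = 0.999), and with 8 to 40 reads per library its 95% interval ran from -1.94 to 0.25. The dKO difference from WT was -0.28 with dKO replicate 3, the highest library, and -0.61 without it.

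Il6 (chr5:30013114-30019981, plus strand) encodes interleukin-6, which signals through Il6ra and Il6st. It had 0.75, 1.32 and 0.51 CPM in WT, 0.72, 0.72 and 1.72 CPM in TIFAB_KO, 0.90, 1.90 and 2.81 CPM in miR-146a_KO and 1.26, 0.74, 4.38 and 1.62 CPM in dKO. Every group overlapped WT. The differences from WT were 1.04 ± 0.67 in miR-146a_KO and 0.97 ± 0.63 in dKO (limma adjusted p = 0.626 and 0.474), with intervals of -0.36 to 2.44 and -0.34 to 2.29. Without dKO replicate 3 the dKO difference was 0.51. Il1a (chr2:129299610-129309972, minus strand), which encodes interleukin-1 alpha, was below the filter. In the fit of all rows with a read its differences from WT were 0.23 ± 1.10, 1.24 ± 1.10 and 0.06 ± 1.02 in TIFAB_KO, miR-146a_KO and dKO, errors too wide to show a 2-fold change.

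The 3 CC chemokine genes lie in 1 cluster on chromosome 11, Ccl9 at chr11:83572919-83578636 and Ccl3 at chr11:83647844-83649355 on the minus strand and Ccl4 at chr11:83662584-83664683 on the plus strand. Ccl3 and Ccl4 encode the macrophage inflammatory proteins 1 alpha and 1 beta, which attract leukocytes, and Ccl9 encodes a ligand of Ccr1 that myeloid cells make. Neighbours in the genome, they did not share a pattern across the groups. Between these genes the correlation over the 13 libraries was 0.11 for Ccl3 and Ccl4, 0.13 for Ccl3 and Ccl9 and 0.21 for Ccl4 and Ccl9, given as a description.

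Ccl3 had 99.9, 74.7 and 63.8 CPM in WT, 68.7, 79.7 and 78.0 CPM in TIFAB_KO, 77.9, 57.4 and 87.8 CPM in miR-146a_KO and 92.7, 72.8, 41.4 and 91.3 CPM in dKO. All groups overlapped, and dKO replicate 3 was the lowest library. The differences from WT were -0.05, -0.09 and -0.14 in TIFAB_KO, miR-146a_KO and dKO, and their 95% intervals lay within -0.63 and 0.48. A 2-fold change of Ccl3, in either direction, was thus outside the interval of each comparison with WT.

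Ccl4 had 8.59, 13.7 and 10.1 CPM in WT and 8.24, 9.85 and 10.6 CPM in TIFAB_KO. It had 13.6, 12.0 and 13.2 CPM in miR-146a_KO, and 8.62, 7.68, 7.37 and 7.41 CPM in dKO. The 4 dKO libraries lay closely together below all miR-146a_KO libraries, with a difference of -0.73 ± 0.22 (limma unadjusted p = 0.00363, adjusted p = 1.000), ranked 17 of 11867 by p. The difference did not pass, and was -0.78 to -0.70 without each library in turn. Ccl4 in dKO against WT was -0.44 ± 0.22 (adjusted p = 0.370), and WT replicate 1 lay within the dKO range.

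Ccl9 had 177, 179 and 138 CPM in WT and 171, 145 and 265 CPM in TIFAB_KO. It had 133, 114 and 124 CPM in miR-146a_KO, and 108, 102, 128 and 121 CPM in dKO. Every library without miR-146a lay below every library with it, the nearest being 133 and 138 CPM. How many of all rows separate in this way was not counted. In miR-146a_KO against WT alone 6.4% of all rows were lower without overlap. The difference was -0.40 ± 0.19 in miR-146a_KO against WT (limma unadjusted p = 0.0457, adjusted p = 0.522) and -0.52 ± 0.18 in dKO against WT (0.00837 and 0.236). In dKO against TIFAB_KO it was -0.72 ± 0.18 (6.56e-04 and 0.130), with a 95% interval of -1.09 to -0.35. None passed with all libraries. In the last comparison Ccl9 did pass without TIFAB_KO replicate 2 (-0.90, adjusted p = 0.039) or without dKO replicate 4 (-0.75, adjusted p = 0.0468), and the value was -0.47 when TIFAB_KO replicate 3, the highest library, was left out. Ccl9 in TIFAB_KO against WT was 0.20, and -0.05 without TIFAB_KO replicate 3.

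Cxcl2 (chr5:90903871-90905938, plus strand) encodes a neutrophil attractant that binds Cxcr2. It had 7.34, 7.95 and 7.18 CPM in WT and 5.01, 2.53 and 2.82 CPM in TIFAB_KO. It had 6.29, 5.31 and 13.03 CPM in miR-146a_KO, and 7.04, 5.08, 19.6 and 6.05 CPM in dKO. TIFAB_KO was the low group in CPM, below every library of each other group. The nearest, TIFAB_KO replicate 1 (42 reads) and dKO replicate 2 (41 reads), were not apart beyond counting error. Their intervals of counting error were 3.61 to 6.78 and 3.64 to 6.89 CPM. How many of all rows set TIFAB_KO below all other groups in this way was not counted. The difference was -1.17 ± 0.44 against WT (limma unadjusted p = 0.0157, adjusted p = 0.776), and dKO was 1.28 ± 0.41 above TIFAB_KO (0.00588 and 0.164). Neither passed. Without dKO replicate 3, the highest library, the second difference was 0.86. The interaction, which asks whether the effect of both losses differs from the sum of the single effects, was 1.26 ± 0.60 for Cxcl2 (0.0506 and 1.000), and 0.84 without dKO replicate 3.

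Cxcl10 (chr5:92346638-92348889, minus strand) encodes a ligand of Cxcr3 and is induced by interferons as well as by NF-kB. It had 16.1, 21.9 and 20.8 CPM in WT and 20.4, 3.795 and 7.04 CPM in TIFAB_KO. It had 29.0, 7.78 and 13.8 CPM in miR-146a_KO, and 9.56, 2.60, 27.1 and 10.4 CPM in dKO. Each knockout group held 1 library within or above the WT range, and its others lay below it. The differences from WT were -1.24 ± 0.65, -0.41 ± 0.65 and -1.08 ± 0.60 in TIFAB_KO, miR-146a_KO and dKO (limma adjusted p = 0.999, 0.851 and 0.416). The dKO difference was -1.60 without dKO replicate 3 and -0.48 without dKO replicate 2. The TIFAB_KO difference was -1.90 without TIFAB_KO replicate 1 and -0.69 without TIFAB_KO replicate 2, so single libraries set the size of both.

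**Figure D2:**
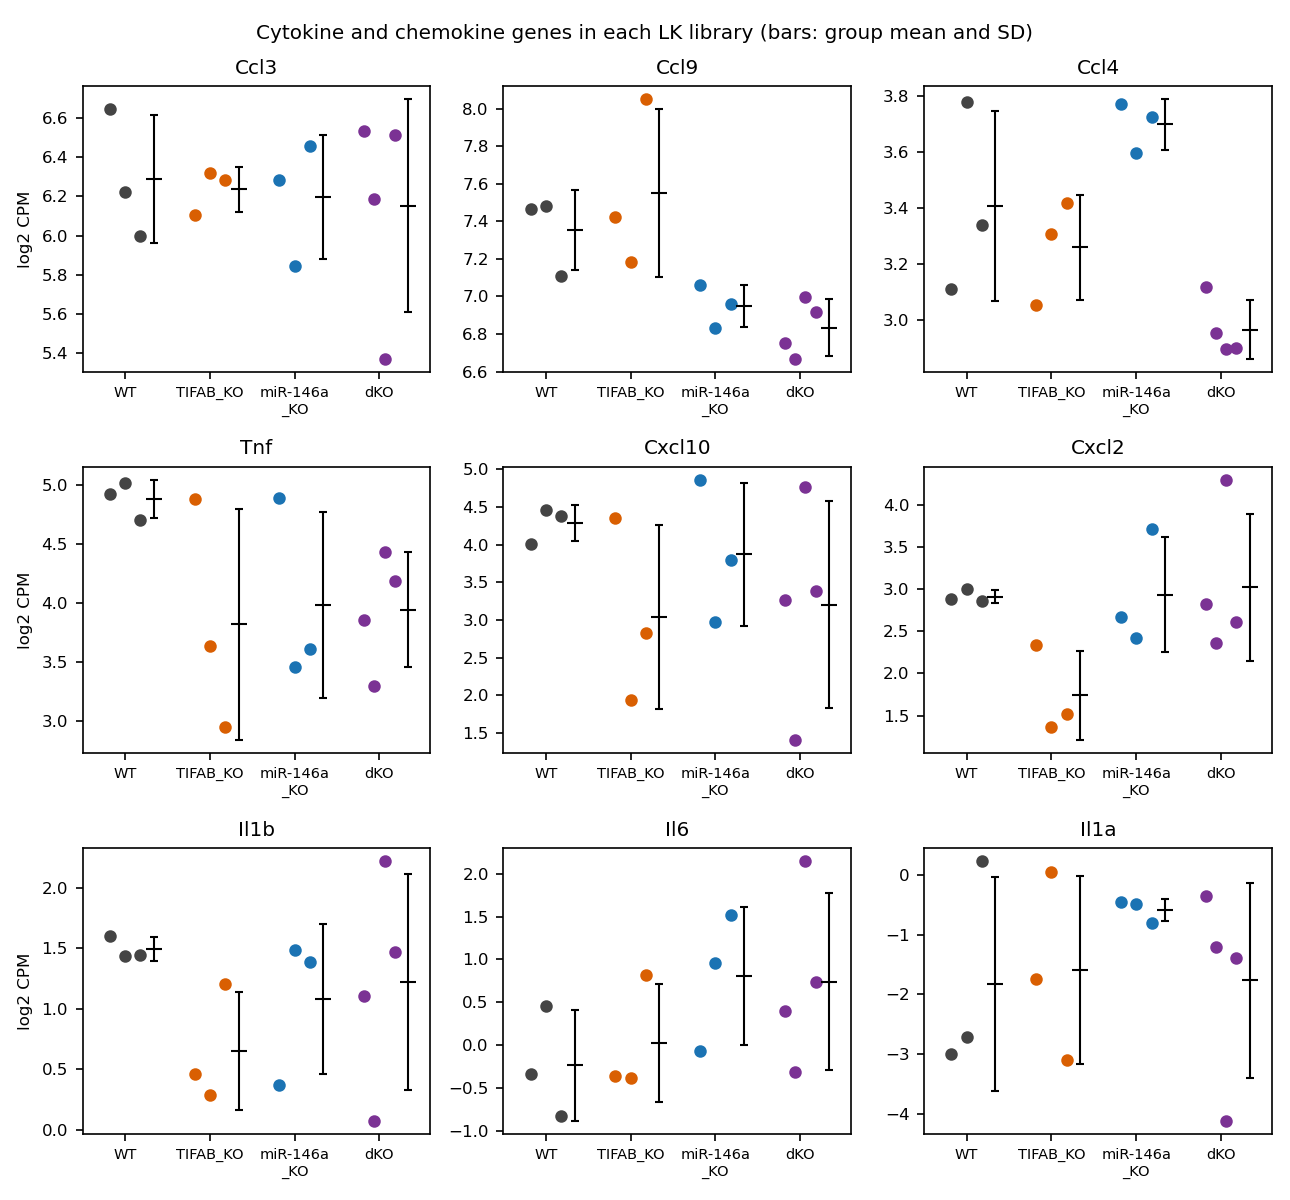
log2 CPM of the 9 genes (1 panel each, with its own scale); points are libraries in replicate order and bars are the group mean and SD (n = 3, dKO n = 4). Ccl9 is below WT in all miR-146a_KO and dKO libraries and Cxcl2 is below WT in all TIFAB_KO libraries, while Tnf and Cxcl10 are spread over a wide range in every knockout group.

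Counted over the 8 genes tested, limma called 0 in each of the 6 comparisons, and limma-voom on the recovered reads also called 0. Over all rows tested 0.0169% were called in TIFAB_KO against WT, 0.0843% in miR-146a_KO against WT and 0.0674% in dKO against WT. For dKO against TIFAB_KO the share was 0.0337%, for dKO against miR-146a_KO 0.0506% and for the interaction 0.0%. Beside shares this small, 0 of 8 is no result about these genes as a group.

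At an unadjusted limma p under 0.05, 2 of the 8 genes were lower in TIFAB_KO against WT (Tnf and Cxcl2), where 5.11% of all rows met that mark. In miR-146a_KO against WT it was 2 of 8 (Tnf and Ccl9, both lower) beside 9.53%, and in dKO against WT 2 of 8 (the same names, both lower) beside 14.1%. In dKO against TIFAB_KO 2 of 8 met it (Cxcl2 higher, Ccl9 lower) beside 18.5%, in dKO against miR-146a_KO 1 of 8 (Ccl4, lower) beside 1.93%, and for the interaction 0 of 8 beside 4.23%. With limma-voom these counts were 3, 2, 2, 2, 1 and 2. The median log2 fold change of the 8 genes was -0.50, -0.25 and -0.36 in TIFAB_KO, miR-146a_KO and dKO against WT, where the medians of all rows were -0.01, 0.09 and 0.08. Below 0 were 6, 5 and 6 of the 8 genes, and of all rows 52.4%, 37.8% and 40.0%. The 3 comparisons share the WT libraries, so their values are not independent of one another.

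Groups whose libraries did not overlap were counted in the same way. In TIFAB_KO against WT, 2 genes were lower without overlap (Il1b and Cxcl2) beside 3.31% of all rows. It was 1 gene in miR-146a_KO against WT (Ccl9) beside 6.4%, and 2 in dKO against WT (Tnf and Ccl9) beside 3.62%. In dKO against TIFAB_KO, Cxcl2 was higher beside 6.82% of rows and Ccl9 lower beside 3.84%, and in dKO against miR-146a_KO, Ccl4 was lower beside 2.12%. Counts of 1 or 2 of 8 rest on single genes and set nothing apart in the group as a whole.

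**Figure D3:**
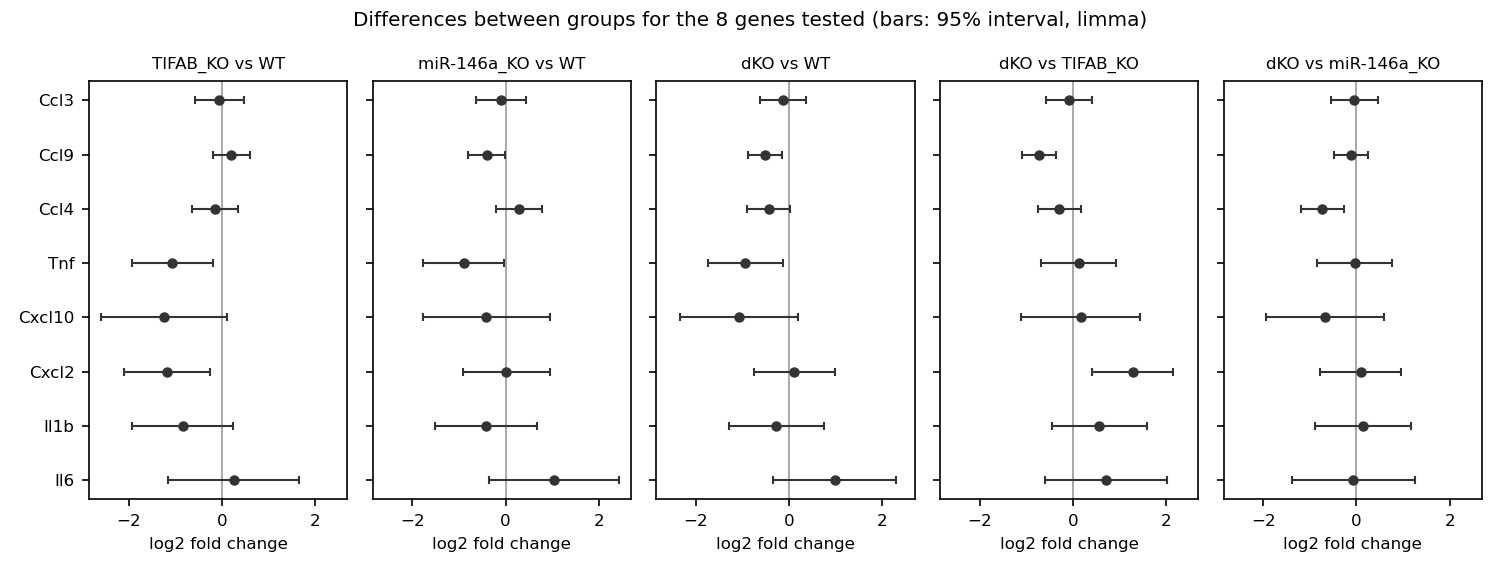
log2 fold change of the 8 tested genes in the 5 comparisons of groups, with 95% intervals from limma; the line marks 0. Intervals are narrow for Ccl3, Ccl4 and Ccl9 and wide for Cxcl10 and Il6, and no difference passed the adjusted p threshold.

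A few pairs of the genes varied together from library to library. Over the 13 libraries 5 of the 36 pairs had a Pearson correlation over 0.5 and 16 were below 0, the lowest being -0.51 for Il1a and Ccl9. The highest was that of Tnf and Cxcl10 (Pearson r = 0.80, Spearman rho = 0.81), and it was 0.80 when each group was centred on its mean and 0.78 without the 2 libraries farthest from the median of Tnf. The 3 WT libraries, TIFAB_KO replicate 1, miR-146a_KO replicate 1 and dKO replicate 3 were high in both genes, and the other 7 libraries were lower in both. Il1b and Il6 had 0.63 (rho 0.45), and 0.88 after centring on group means, with dKO replicate 3 highest in both, and without that library 0.46 and 0.80. Cxcl2 had 0.64 with Il1b, 0.62 with Cxcl10 and 0.56 with Il6, and without dKO replicate 3 it had 0.47, 0.56 and 0.28. Tnf and Cxcl10 had 0.82 without it. These values are descriptions over libraries that share a sort, an amplification method and a scaling to the total.

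**Figure D4:**
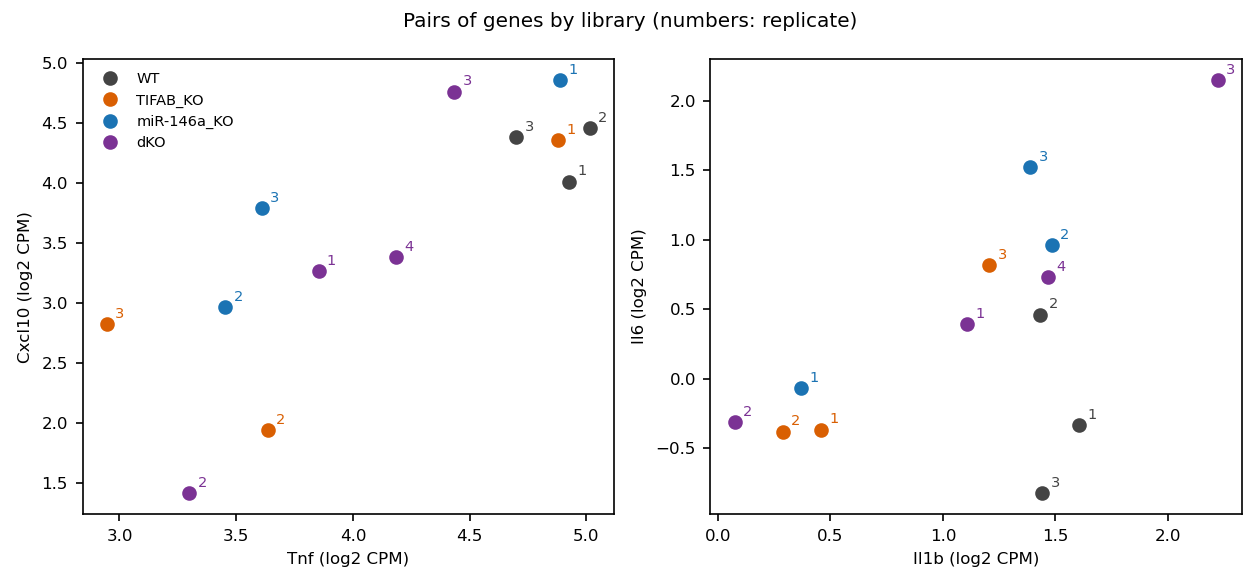
Cxcl10 against Tnf (left) and Il6 against Il1b (right), log2 CPM on both axes; each point is a library, coloured by group and numbered by replicate. In the left panel 6 libraries, 3 of them WT, stand at the upper right; in the right panel dKO replicate 3 is highest on both axes.

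The 10238 other genes that averaged 1 log2 CPM or more were ranked by their correlation with each gene over the 13 libraries. Nearest to Tnf were Tnfrsf12a, the receptor of the cytokine TWEAK (0.93), the transcription factor Bhlhe40 (0.91) and Tob1 (0.91). Nearest to Cxcl10 were the NF-kB subunit Relb (0.90), Slc2a6 (0.88) and Lmna (0.87), and to Cxcl2 Etv3 (0.88), Fam161b (0.86) and the activation marker Cd69 (0.86). The nearest to Il1b were Letm2 (0.90), Il2rg (0.85) and Fbxo34 (0.83), and to Ccl3 Csad (0.89), Slc27a1 (0.89) and Pkmyt1 (0.87). For Il6, compared with 10239 genes, they were Btla (0.83), Pced1b (0.82) and Gtf2f2 (0.79). Ccl9 was nearest to Uqcr11 (0.94), Sec61b (0.93) and the glutathione peroxidase Gpx4 (0.93). Ccl4 was nearest to Tifab (0.83), with Evl (0.82) and Manf (0.82) next. Centred on group means, the correlation of Ccl4 was 0.27 with Tifab, 0.71 with Evl and 0.41 with Manf, while that of Tnf and Tnfrsf12a was 0.93. Picking the highest of so many values over 13 libraries yields high correlations also without a link. The values are therefore descriptions, and no link was tested.

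The sequences below show where these genes carry a motif of the pathway. The seed of miR-146a-5p (Mir146, chr11:43374397-43374461, minus strand), in capitals, is shared with miR-146b-5p, encoded on chromosome 19.
miR-146a-5p: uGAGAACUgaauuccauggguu
miR-146b-5p: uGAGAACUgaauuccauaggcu
The 7-base match to this seed, AGTTCTC, was searched on the sense strand of the longest annotated 3′ untranslated region of each gene. It was present in 1 of the 9 genes, Ccl9, at base 1183 of 2465, and in 12.9% of the 10814 tested genes with such a region. The match is in capitals.
Ccl9 site: aatctttggaAGTTCTCcctgttcgat
The differences of Ccl9 from WT were -0.40 in miR-146a_KO and -0.52 in dKO, and neither passed. The match without its first A, a 6-base match, occurred 2 times in Il6 and 1 time in Ccl9, within the site shown. It was absent from the other genes and present in 34.1% of the tested genes. Whether these matches bear on the values was not tested. The matches are of letters only, and binding was not measured.

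The AU-rich pentamer ATTTA, the core of the element bound by tristetraprolin, was counted in the same regions. Ccl3 had 12.2 per kb, Tnf 10.5, Il1b 8.71, Cxcl2 7.36, Ccl4 6.62 and Il6 5.995, and each exceeded at least 96.2% of the tested genes, whose median was 1.34 per kb. Cxcl10 (3.01), Il1a (2.72) and Ccl9 (2.03) were less rich in it. The value of Ccl4 rests on 2 pentamers in 302 bases, and the median count of the tested genes was also 2. The nonamer, a longer form of this element, occurred 5 times in Tnf, 4 times in Cxcl2 and 1 time in Ccl3. It was absent from the other genes, Il1b, Il6 and Ccl4 included, and present in 17.9% of the tested genes.

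**Figure D5:**
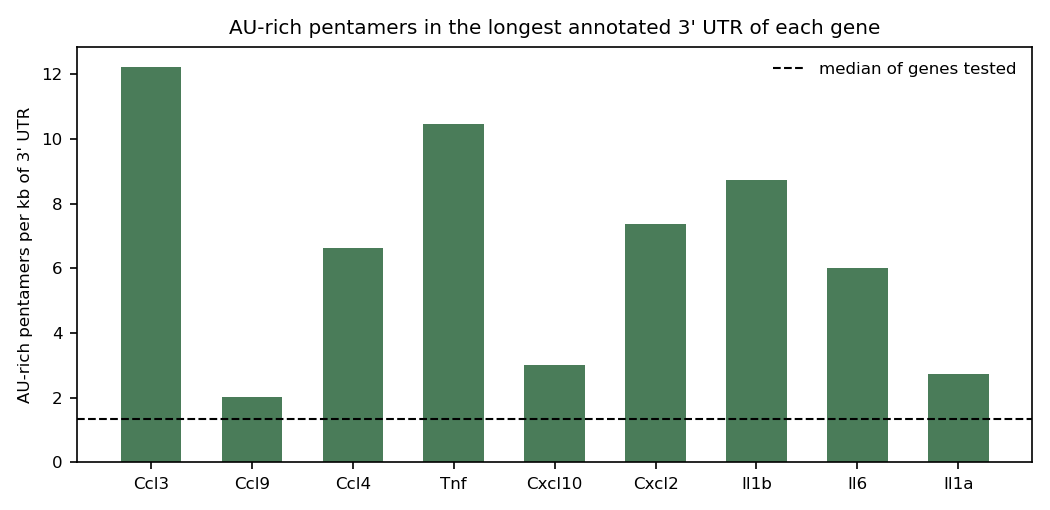
AU-rich pentamers per kb of the longest annotated 3′ untranslated region of each gene (bars), with the median of the tested genes, 1.34 per kb, as a dashed line. All 9 genes are above it, and Ccl3 and Tnf are highest.

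RefSeq promoters (GRCm38.p6, 250 bases before to 50 bases after the start, written in the direction of the gene) were found for 8 of the 9 genes. They are shown for the 4 genes with the clearest differences or shared variation above, with matches to the NF-kB consensus, searched on both strands, in capitals.
Tnf: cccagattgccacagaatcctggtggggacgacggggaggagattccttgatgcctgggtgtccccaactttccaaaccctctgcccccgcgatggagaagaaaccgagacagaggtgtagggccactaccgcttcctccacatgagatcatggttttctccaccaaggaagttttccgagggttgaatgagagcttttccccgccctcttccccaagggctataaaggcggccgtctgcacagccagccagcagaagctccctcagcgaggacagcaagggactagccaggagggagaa
Cxcl2: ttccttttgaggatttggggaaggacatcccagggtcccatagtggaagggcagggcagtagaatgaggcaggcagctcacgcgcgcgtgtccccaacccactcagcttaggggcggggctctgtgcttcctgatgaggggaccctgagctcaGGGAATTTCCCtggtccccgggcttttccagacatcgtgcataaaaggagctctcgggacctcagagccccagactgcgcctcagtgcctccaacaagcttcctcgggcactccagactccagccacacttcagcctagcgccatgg
Cxcl10: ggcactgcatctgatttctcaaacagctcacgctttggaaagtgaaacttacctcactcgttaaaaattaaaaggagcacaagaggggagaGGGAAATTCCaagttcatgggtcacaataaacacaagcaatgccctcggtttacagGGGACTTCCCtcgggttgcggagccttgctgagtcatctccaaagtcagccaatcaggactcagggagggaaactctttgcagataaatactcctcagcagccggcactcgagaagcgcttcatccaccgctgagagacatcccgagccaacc
Ccl9: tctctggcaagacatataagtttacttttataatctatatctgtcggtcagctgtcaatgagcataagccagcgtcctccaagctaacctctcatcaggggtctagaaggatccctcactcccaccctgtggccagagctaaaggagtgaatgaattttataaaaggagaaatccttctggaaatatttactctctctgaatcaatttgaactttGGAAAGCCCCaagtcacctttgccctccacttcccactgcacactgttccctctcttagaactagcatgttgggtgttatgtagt
The consensus was matched in 4 of the 8 promoters and in 4.51% of 32851 RefSeq promoters of this length. Cxcl2 held 2 overlapping matches, 97 and 96 bases before the start, and Cxcl10 held 2 separate ones, 159 and 103 bases before it. Il6 had its match at 44 bases and Ccl9 at 35 bases, on the opposite strand in Ccl9. Tnf, whose level varied with that of Cxcl10, had no match within this window, which says only that these letters do not stand there.

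Other genes of the pathway were followed in lists, and of their 139 genes 90 were tested. Limma called 0 of them in each comparison, as did limma-voom, while 22, 19 and 15 were at an unadjusted limma p under 0.05 in TIFAB_KO, miR-146a_KO and dKO against WT (limma-voom 26, 20 and 17), beside 5.11%, 9.53% and 14.1% of all rows. Among further cytokines 13 of 35 were tested. The values of smallest p were 0.36 ± 0.17 for Il16 in TIFAB_KO, 0.40 ± 0.17 for Il16 in miR-146a_KO and -0.41 ± 0.16 for Mif, the macrophage migration inhibitory factor, in dKO. The anti-inflammatory Il10 was at -1.32 ± 0.65 in TIFAB_KO. The median of these 13 was 0.07, 0.02 and 0.06 in the 3 knockout groups against WT.

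Of 30 further chemokines 11 were tested. The platelet chemokine Ppbp was at -1.13 ± 0.25 in miR-146a_KO against WT (limma adjusted p = 0.151) and -0.32 ± 0.24 in dKO, and Pf4, also a platelet chemokine, was at -0.73 ± 0.23 and -0.91 ± 0.21 (0.408 and 0.140). Both are megakaryocyte products. Of 9 tested megakaryocyte and platelet markers 5, 9 and 8 were below 0 in TIFAB_KO, miR-146a_KO and dKO against WT. Of all rows 52.4%, 37.8% and 40.0% were below 0. The full list of these markers summed to 485 to 597 CPM in WT and 422 to 563 in TIFAB_KO. Its sums were 347 to 535 CPM in miR-146a_KO and 332 to 571 in dKO. Their part in the result was not tested.

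Of 15 receptors 9 were tested. Tnfrsf1a, the main receptor of TNF, was at 0.61 ± 0.20 in TIFAB_KO against WT (limma adjusted p = 0.678), and Il1rap, the shared chain of the interleukin-1 receptors, at 0.77 ± 0.23 in dKO (0.216). Among 11 of 13 tested genes for processing and inhibition, Ripk1, a kinase below the TNF receptor, was at 0.60 ± 0.17 in miR-146a_KO and 0.54 ± 0.16 in dKO (0.408 and 0.216). In miR-146a_KO the sheddase Adam17 (0.36 ± 0.14), caspase-1 (Casp1, 0.36 ± 0.15) and its adaptor Pycard (0.62 ± 0.26) also had positive values. Of these 11 genes 6, 6 and 5 were above 0 in TIFAB_KO, miR-146a_KO and dKO against WT, beside 47.6%, 62.2% and 60.0% of all rows. For the receptors, 7 of 9 were above 0 in each knockout group against WT, where 47.6%, 62.2% and 60.0% of all rows were.

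Of 16 NF-kB subunits, inhibitors and response genes, 13 were below 0 in TIFAB_KO against WT (median -0.52), where 52.4% of all rows were (median -0.01). Tnfaip3, which encodes the ubiquitin editor A20, was at -1.44 ± 0.41 (limma adjusted p = 0.585), Nfkbiz at -1.26 ± 0.39, Cd83 at -2.36 ± 0.78 and Nfkbia, the inhibitor IkB alpha, at -0.88 ± 0.31. In miR-146a_KO 11 of 16 and in dKO 12 of 16 were below 0 (medians -0.16 and -0.24), beside 37.8% and 40.0% of all rows. The summed level was 944 to 1208 CPM in WT, and 1123, 529 and 441 CPM in the TIFAB_KO libraries. It was 901, 651 and 894 CPM in miR-146a_KO and 824, 664, 1165 and 754 CPM in dKO. The libraries of low sum in TIFAB_KO, replicates 2 and 3, are those of low Tnf, Cxcl2 and Cxcl10, and dKO replicate 3 is highest in all of these within its group.

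Immediate early genes, which cells induce within minutes of a stimulus, encode mostly transcription factors such as Fosb and also phosphatases such as Dusp1. In TIFAB_KO 18 of 20 were below 0 against WT (median -0.61), in miR-146a_KO 16 (-0.51) and in dKO 14 (-0.36), beside 52.4%, 37.8% and 40.0% of all rows. Limma and limma-voom called 0 of them, with 13, 9 and 8 at an unadjusted limma p under 0.05, beside 5.11%, 9.53% and 14.1% of all rows. Fosb was at -1.29 ± 0.36, -1.10 ± 0.36 and -1.30 ± 0.34 in the 3 groups. The summed level was 6735 to 7793 CPM in WT, 7202, 3473 and 4617 CPM in TIFAB_KO, 7203, 4606 and 5624 CPM in miR-146a_KO and 6257, 6085, 6805 and 4420 CPM in dKO. In each single knockout, replicate 1 had the highest sum and also the highest Tnf and Cxcl10. The part of this in the cytokine values was not tested.

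Of 10 genes that control the decay of cytokine mRNA all were tested, and 9 were below 0 in TIFAB_KO against WT (median -0.29), beside 52.4% of all rows. Zfp36l1 was at -0.76 ± 0.21 and Zfp36 at -0.46 ± 0.17 (limma adjusted p = 0.584 and 0.790). In dKO against TIFAB_KO 9 of 10 were above 0, beside 60.1% of all rows, with Rc3h2, which encodes roquin-2, at 0.86 ± 0.22 and the mRNA-stabilising Elavl1 at 0.65 ± 0.19 (0.130 and 0.141).

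Mature myeloid cells make these cytokines at high levels, so their markers were read in the same libraries. In bulk RNA, fewer cells of a type and less RNA per cell cannot be told apart. The monocyte and macrophage markers, 16 of 19 with a median of over 3 reads, summed to 373 to 601 CPM in WT, 572 to 863 in TIFAB_KO, 527 to 616 in miR-146a_KO and 570 to 718 in dKO. Of the 14 tested, 12, 10 and 12 were above 0 in TIFAB_KO, miR-146a_KO and dKO against WT (medians 0.80, 0.63 and 0.46). Of all rows 47.6%, 62.2% and 60.0% were above 0. Csf1r, the receptor of macrophage colony-stimulating factor, had 91.1 to 169 CPM over all libraries. Of the macrophage complement genes, C1qa had 0 reads in 7 of 13 libraries. C1qb (0.41 to 8.21 CPM) and C1qc (0.45 to 6.18 CPM) had reads in every library. Late granulocyte markers, 11 of 12 measured with a median of over 3 reads, summed to 48.9 to 97.6 CPM in WT, 61.7 to 250 in TIFAB_KO, 82.0 to 133 in miR-146a_KO and 46.9 to 612 in dKO. The LK progenitor markers summed to 11633 to 17102 CPM in WT, 18403 to 20427 in TIFAB_KO, 14097 to 16483 in miR-146a_KO and 12516 to 16904 in dKO. The TIFAB_KO sums lay above those of all other libraries, but Mpo alone held 6715 to 14550 CPM over all libraries. The 15 markers were split in TIFAB_KO against WT, 8 above 0 and 7 below 0, beside 47.6% of all rows above 0. The mast cell, basophil and eosinophil markers summed to 629 to 901 CPM in WT, 880 to 1297 in TIFAB_KO, 892 to 1061 in miR-146a_KO and 562 to 1431 in dKO. The part of these marker levels in the cytokine values was not tested. The library highest in late granulocyte markers, dKO replicate 3, was also highest among dKO libraries in Tnf, Il1b, Il6, Cxcl2 and Cxcl10 and lowest in Ccl3. Without it and TIFAB_KO replicate 3 limma still called 0 of the 8 genes in each comparison, with differences from WT of -0.62 for Tnf, -1.06 for Cxcl2 and -1.14 for Cxcl10 in TIFAB_KO, and -1.10, -0.31 and -1.60 in dKO. Ccl9 in dKO was then -0.57 against WT.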

How the data were processed

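LK cells of 4 genotypes (13 libraries) were sequenced after amplification with the Ovation RNA-Seq System v2 and Nextera XT library preparation, per the labels' protocols. Per the submitters' processing notes, TopHat, featureCounts and limma were used with mm10, and no source used here gives their versions. The deposited values are log2 CPM as voom writes them, 0.5 being added to each read count and 1 to each total. Whole reads were recovered for 100% of values within 0.01 read. Recovered totals were 7.83 to 12.8 M reads, and intervals or floors from reads cover counting error only.

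The test was limma 3.58.1 in R 4.3.3 on these log2 CPM, fitted to all 13 libraries with a mean for each group, a variance trend (9 residual and 9.53 prior degrees of freedom) and 6 contrasts. A positive difference is a higher value in the group named first. On simulated counts for dKO against WT it recovered 56 of 99 genes changed 2-fold and 100 of 100 changed 4-fold, with 6 calls among 11759 unchanged genes. The simulated counts had the same dispersion for every gene, not that of the genes described. In dKO the SD of log2 CPM was 0.10 for Ccl4 and 1.38 for Cxcl10. The recovery is therefore not a rate for these genes. Positions and transcripts were those of GENCODE M21 (GRCm38, the mm10 build), and promoters and microRNAs from RefSeq (GRCm38.p6). The genes described and all lists were chosen with earlier results of these data known. Named genes were all 9, Tifab, up to 4 per list and contrast by smallest p, and the 3 nearest by correlation per gene. Alternatives were other filters, median centring, limma-voom, 2 reads added, only the groups compared, a replicate block and each library left out, and, chosen after seeing the data, 2 libraries left out.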

Additional observations from a re-analysis of the deposited data

How the results depend on the processing

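The number of the 8 genes called was 0 in all comparisons under all alternatives, except dKO against TIFAB_KO, where leaving out each library in turn gave 0 to 1, the 1 being Ccl9 without TIFAB_KO replicate 2 or dKO replicate 4. A filter at a mean of 3 log2 CPM left 5 of the 8 genes in the test. Of 982 alternative values of single genes 923 kept direction and side of the threshold, and 57 changed sign. Replicate numbers did not pair the libraries (correlation of deviations -0.20 to 0.23, 2 of 18 pairs over 0.1). Libraries of different groups with the same S number in the labels, whose meaning is not stated, had correlations of -0.09 to 0.06 (5 pairs), beside -0.20 to 0.27 in the other 58 pairs. A replicate block also called 0 of the 8 genes. Only dKO has a replicate 4, so the block fits that library by a term of its own and in effect leaves it out. The Ccl3 interaction was -0.11 with the block and also without dKO replicate 4. Cxcl2 in miR-146a_KO against WT was -0.0602 with median centring and -0.0251 with limma-voom. Median centring moved the all-row medians of 0.09 and 0.08 in miR-146a_KO and dKO against WT to 0.01 each.

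Without 1 or 2 libraries the other sign changes were as follows, each as lowest to highest log2 fold change. Tnf was -0.48 to 0.65 in dKO against TIFAB_KO and -0.31 to 0.41 against miR-146a_KO. Il1b was -0.61 to 0.11 in dKO against WT and -0.22 to 0.52 against miR-146a_KO. Il6 was -0.14 to 0.60 in TIFAB_KO against WT, -0.53 to 0.29 in dKO against miR-146a_KO and -0.79 to 0.0744 in the interaction. Ccl3 was -0.20 to 0.13, -0.24 to 0.0847 and -0.28 to 0.12 in TIFAB_KO, miR-146a_KO and dKO against WT, -0.21 to 0.20 and -0.22 to 0.22 in dKO against TIFAB_KO and miR-146a_KO, and -0.17 to 0.29 in the interaction. In TIFAB_KO against WT Ccl4 was -0.30 to 0.0352 and Ccl9 -0.0495 to 0.38. Cxcl2 was -0.37 to 0.28 in miR-146a_KO and -0.31 to 0.33 in dKO against WT, and -0.33 to 0.48 in dKO against miR-146a_KO. Cxcl10 was -0.90 to 0.0426 in miR-146a_KO against WT, -0.46 to 0.82 in dKO against TIFAB_KO and -0.0509 to 1.23 in the interaction. The cause was not tested.

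Counts over all rows moved more. For dKO against WT 8 rows were called, 281 with the block and 4 to 336 without 1 library. For dKO against TIFAB_KO these counts were 4, 146 and 3 to 278. The 336 and 278 were those without dKO replicate 4, which the block in effect also leaves out. For TIFAB_KO against WT the 2 calls became 0 without the filter and 0 to 44 without 1 library, and the 10 calls of miR-146a_KO against WT became 89 with only the groups compared. Il1a, Il6 and Il1b, at medians of 4, 12 and 26 reads, are limited by depth.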
